A study of Mus musculus with 6 samples.

Results

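Ligands, antagonists, receptors and SMAD proteins of the BMP, activin and TGF-beta pathway were followed in ID4-GFP+ spermatogonia, the dividing germ cells of the mouse testis that carry a fluorescent reporter for ID4. Members were all rows of the deposited gene table whose symbol belongs to one of these families by a fixed pattern and that do not lie on chromosome 15. This gave 63 genes of the 23355 rows in the table. The pattern also takes 3 rows on chromosome 15 (Amhr2, Acvr1b and Acvrl1), which the rule leaves out. RNA was compared between 3 testis samples labelled as ID4 overexpression in germ cells and 3 control samples, and the series describes the overexpression as constitutive. Per the series' design text, cells of both groups were ID4-GFP+, so the controls are reporter cells as well. Strain, the age of these animals and the promoter that drives the transgene are not given in the sources used here.

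Ligands of this family bind pairs of type I and type II serine/threonine kinase receptors, and the type I receptor then phosphorylates receptor-regulated SMAD proteins, which enter the nucleus with SMAD4. BMP receptors act through SMAD1, SMAD5 and SMAD9, whereas activin and TGF-beta receptors act through SMAD2 and SMAD3. Follistatin and the inhibins limit activin, and SMAD6 and SMAD7 act as feedback inhibitors inside the cell. In the testis, Sertoli cells are a known source of inhibin and anti-Müllerian hormone, and BMP4 and activin are known to influence spermatogonial differentiation in mouse.

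Levels are the authors' FPKM (fragments scaled to transcript length and to the number of mapped fragments). They are per unit of length, and levels of different genes are set side by side only as a description. RNA was primed with oligo d(T), strand use is not stated and some members overlap other genes. The effect of these on comparisons between genes was not tested. The deposited table gives 1 value per group, already combined over the samples, so no replicate SD, no count and no depth per library can be given. A gene was called when the authors' deposited table lists a q of 0.05 or less and a completed test. Whether the samples of a group come from separate animals is not stated, and the authors' p-values then measure only the spread between these samples. The smallest p in the authors' deposited table is 5e-05, with a q of 0.000835, and 657 rows share it. As a check of the labels, Id4 was at 13.4 FPKM with overexpression and 6.37 FPKM in controls, 2.11-fold higher. The transcripts A330033J07Rik and Gm49291 overlap Id4, and whether strand was used in counting is not stated.

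Among the 22 tested members, the largest changes were those of 4 extracellular ones, Inha, Bmp4, Bmp7 and Fst. The tested receptors among the members and the tested SMADs that carry the signal were not called. This also holds for 9121 of all 10990 tested genes. Amhr2, a receptor gene that the rule leaves out, was called and was 3.73-fold higher, so the contrast with receptors depends on that rule. Inha, Bmp4, Fst and Smad7 were higher with ID4 overexpression, and Bmp7 was lower. The authors tested 22 of the 63 members, and 5 of these (22.7%) were called, against 17.0% of all 10990 tested genes. The split was 4 higher (18.2%, against 9.59% of all tested genes) and 1 lower (4.55%, against 7.42%). The median log2 fold change of the tested members was 0.08, beside 0.01 over all tested genes. All 4 tested ligands and antagonists were called, but 33 of the 37 members in those classes were not tested. A gene that is low in controls could enter the test through its level with overexpression, so this count is given only as a description.

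**Figure D1:**
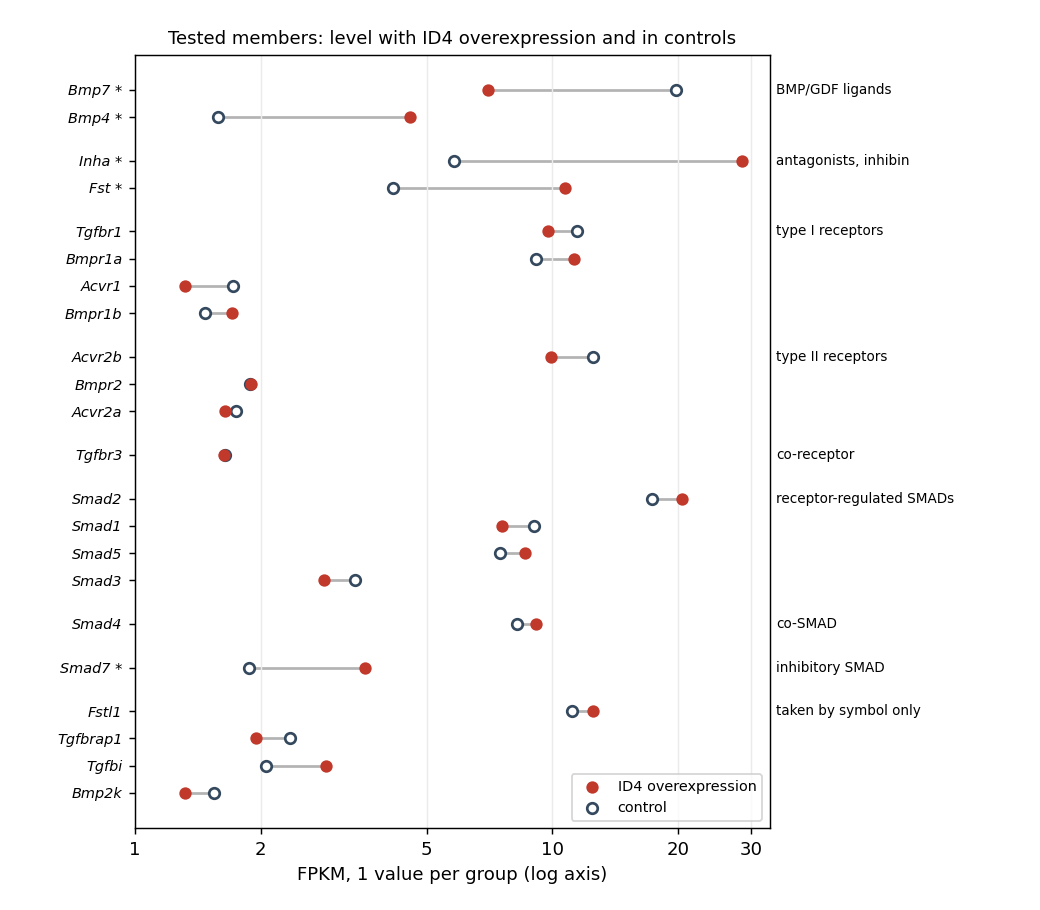
FPKM (log axis, 1 value per group) of the 22 tested members, with ID4 overexpression as filled red points and control as open points, ordered by role. Asterisks mark the 5 called genes, whose points lie far apart, from 1.90-fold for Smad7 to 4.90-fold for Inha. The pairs of all receptors and of the receptor-regulated SMADs lie close together.

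Among BMP and GDF ligands, the 2 tested genes moved in opposite directions. Bmp7, a BMP known for its part in kidney development, was at 7.03 FPKM with overexpression and 19.8 FPKM in controls (log2 change -1.50, 2.82-fold lower). It ranks 61st by size of the 815 lower calls, and no annotated gene overlaps it (chromosome 2, 172869687 to 172940293 of GRCm38). Bmp4, which mouse embryos need to form primordial germ cells, was at 4.55 FPKM with overexpression and 1.58 FPKM in controls, 2.88-fold higher, and ranks 226th of the 1054 higher calls. In the authors' deposited table q is 0.000835 for both. By FPKM, Bmp7 was thus the higher of these ligands in both groups, but it stood at 1.54 times the level of Bmp4 with overexpression and at 12.5 times in controls.

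The make-up of the summed ligand level shows the same pair of changes. The FPKM of the 20 BMP and GDF ligands added up to 15.2 with overexpression and 26.3 in controls. Bmp7 made up 46.3% of that sum with overexpression and 75.4% in controls. Bmp4 made up 29.97% with overexpression and 6.01% in controls. These sums include ligands that the authors did not test.

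Bmp4 lies on chromosome 14, positions 46379524 to 46390599 as deposited, and Gm15217 and Gm15222 overlap it on the opposite strand. The table gives Gm15217 the same locus, at 0.658 FPKM with overexpression and listed at 0 in controls. The sources do not say whether counting used strand, so fragments from these genes and from Bmp4 cannot be told apart. Of the 63 members, 43 have an entry in the RefSeq promoter table, and of the 5 called members Bmp4 and Inha have one. The start in the Inha entry lies 532 bases inside the gene, and its window is not shown. The 250 bases before the start of Bmp4 are shown because ID proteins are known to sequester the basic helix-loop-helix factors that bind E-boxes. They come from RefSeq (GRCm38.p6), chr14:46390670-46390919, minus strand, with matches to the E-box letters CANNTG in capitals.
Bmp4: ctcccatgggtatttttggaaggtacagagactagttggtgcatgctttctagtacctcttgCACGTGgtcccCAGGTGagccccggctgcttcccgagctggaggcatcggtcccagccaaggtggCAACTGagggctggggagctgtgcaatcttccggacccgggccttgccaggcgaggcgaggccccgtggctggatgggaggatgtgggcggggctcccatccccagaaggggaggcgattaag

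This window holds 3 matches, the capital stretches above. Over 32851 RefSeq windows of the same length, 66.2% hold at least 1 match on either strand and 12.2% hold 3 or more. The SMAD box GTCTAGAC and the BMP-type SMAD box GGCGCC have no match in it (0.167% and 9.59% of all windows hold them), and the short SMAD motif GTCT has 1 match (82.9% of windows). These matches describe letters and are not evidence of binding.

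The other 18 BMP and GDF ligands were not tested and stayed at or below 1.36 FPKM in both groups. Gdf15, a stress-induced divergent member of the family, had the highest of these values, with 1.36 FPKM with overexpression and 0.734 FPKM in controls. Gdf9, best known as an oocyte growth factor, had 0.759 FPKM with overexpression and 0.877 FPKM in controls. Bmp8b, which in mouse is needed for germ-cell development and spermatogenesis, had 0.134 FPKM with overexpression and 0.955 FPKM in controls. Its neighbour and close paralog Bmp8a had 0.0744 FPKM with overexpression and 0.413 FPKM in controls. Both lay lower with overexpression, but reads may be split between the near-identical copies. Bmp8b also overlaps Oxct2b, which itself had 0.465 FPKM with overexpression and 0.990 FPKM in controls. Bmp8a shares its locus with Oxct2a, which lay the other way, with 0.311 FPKM with overexpression and 0.0702 FPKM in controls. Gdf1 (0.101 FPKM with overexpression, 0.581 FPKM in controls) and Gdf11 (0.0665 FPKM with overexpression, 0.283 FPKM in controls) were lower without a test as well. Gdf1 shares its locus with Cers1 and Upf1. Bmp10, Gdf2 and Gdf7 were listed at 0 in both groups.

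Ligands of the TGF-beta, activin, nodal and AMH branches were all below 1 FPKM, and the authors tested none of the 9. The highest was Tgfb3, with 0.821 FPKM with overexpression and 0.650 FPKM in controls. Inhba, the activin beta A subunit gene, had 0.794 FPKM with overexpression and 0.261 FPKM in controls. Inhbb, the beta B subunit gene, had 0.416 FPKM with overexpression and 0.189 FPKM in controls. Inhba and Inhbb therefore lay higher with overexpression, by more than 2-fold, at levels where the authors ran no test. The other beta subunit genes among the 9 did not lie higher. Tgfb1 had 0.235 FPKM with overexpression and was listed at 0 in controls. Amh, the anti-Müllerian hormone of Sertoli cells, had 0.0366 FPKM with overexpression and 0.113 FPKM in controls.

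**Figure D2:**
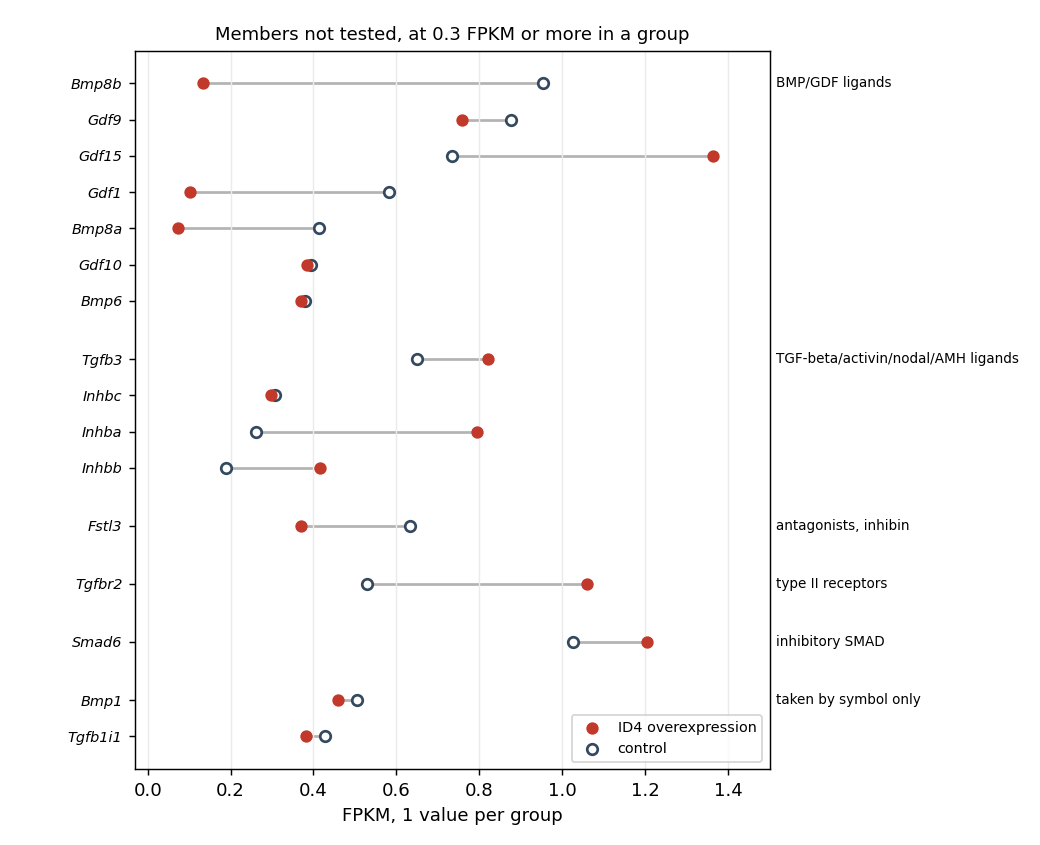
FPKM (linear axis, 1 value per group) of members without a completed test that reached 0.3 FPKM in a group, with ID4 overexpression as filled red points and control as open points. Nearly all lie below 1 FPKM. Bmp8b, Gdf1 and Bmp8a lie lower with overexpression, and Gdf15, Inhba and Tgfbr2 lie higher, with no test of any of these differences.

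Antagonists held the largest called change among the members. Inha, which encodes the inhibin alpha subunit, was at 28.5 FPKM with overexpression and 5.81 FPKM in controls, 4.90-fold higher (authors' deposited table, q = 0.000835). It ranks 44th of the 1054 higher calls and was the most abundant of the members with overexpression (chromosome 1, 75507077 to 75510354). The alpha subunit pairs with an activin beta subunit to form inhibin. The FPKM of Inha was 35.9 times that of Inhba with overexpression and 22.3 times in controls. Inhba itself was below 1 FPKM and was not tested. Fst, which encodes the activin-binding protein follistatin, was at 10.7 FPKM with overexpression and 4.16 FPKM in controls, 2.57-fold higher, with the same q (chromosome 13, 114452262 to 114458730). An antisense transcript, Gm47040, overlaps 289 bases of Fst. Sertoli cell markers moved in the same direction as these genes (6 of 10 tested higher, 0 lower), beside 9.59% higher and 7.42% lower among all tested genes. The part of these markers in the result was not tested.

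The other 6 antagonists were not tested. Fstl3, a follistatin relative, had 0.370 FPKM with overexpression and 0.632 FPKM in controls, in a deposited locus shared by 46 rows. Lefty2, a nodal antagonist, had 0.208 FPKM with overexpression and 0.108 FPKM in controls, while its neighbour Lefty1 had 0.0380 FPKM with overexpression and 0.114 FPKM in controls. Grem1 was listed at 0 with overexpression and Nog, the noggin gene, at 0 in controls.

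None of the 8 tested receptor genes was called, beside 17.0% of all tested genes, so most genes of any kind were not called. The log2 fold changes of these receptor genes ran from -0.38 to 0.30, with a median of -0.05. The summed FPKM of type I and type II receptors was 38.8 with overexpression and 40.5 in controls. Among type I receptors, Bmpr1a, a BMP receptor, had 11.3 FPKM with overexpression and 9.15 FPKM in controls. Tgfbr1, the TGF-beta type I receptor, had 9.77 FPKM with overexpression and 11.5 FPKM in controls. Bmpr1b, the second BMP type I receptor, was lower than both, with 1.71 FPKM with overexpression and 1.47 FPKM in controls, and Acvr1 had 1.31 FPKM with overexpression and 1.71 FPKM in controls. In the authors' deposited table the q of these 4 lies between 0.244 for Bmpr1a and 0.647 for Bmpr1b. The order of Bmpr1a and Tgfbr1 differs between the groups, and no replicate spread is at hand to say whether their levels differ.

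Of the type II receptors, the activin receptor gene Acvr2b was the most abundant, with 9.95 FPKM with overexpression and 12.5 FPKM in controls (authors' deposited table, q = 0.335). Its relative Acvr2a had 1.64 FPKM with overexpression and 1.74 FPKM in controls. Bmpr2, the BMP type II receptor, had 1.90 FPKM with overexpression and 1.89 FPKM in controls. Acvr2b thus stood at 6.07 times the level of Acvr2a with overexpression and at 7.18 times in controls. Tgfbr2, the TGF-beta type II receptor, was not tested and had 1.06 FPKM with overexpression and 0.529 FPKM in controls. Tgfbr3, which encodes the co-receptor betaglycan, known to present TGF-beta and to bind inhibin, had 1.63 FPKM with overexpression and 1.65 FPKM in controls. Amhr2, the AMH receptor gene that the rule leaves out, lies on chromosome 15 and was called, with 6.32 FPKM with overexpression and 1.69 FPKM in controls.

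Smad7 was the 1 called gene among the 6 tested SMADs, a share not far from the 17.0% of all tested genes. It encodes an inhibitory SMAD that binds activated type I receptors, and its level was 3.57 FPKM with overexpression and 1.88 FPKM in controls, 1.90-fold higher (authors' deposited table, q = 0.00385). Smad7 ranks 543rd of the 1054 higher calls, and no annotated gene overlaps it (chromosome 18, 75367365 to 75395934). Smad6, the inhibitory SMAD with a preference for BMP receptors, was not tested and had 1.21 FPKM with overexpression and 1.03 FPKM in controls.

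Receptor-regulated SMADs of both branches were measured and were not called. Smad2 was the most abundant, with 20.5 FPKM with overexpression and 17.3 FPKM in controls. Smad3, its partner in the activin and TGF-beta branch, had 2.84 FPKM with overexpression and 3.37 FPKM in controls. In the BMP branch, Smad1 had 7.58 FPKM with overexpression and 9.06 FPKM in controls, and Smad5 had 8.58 FPKM with overexpression and 7.49 FPKM in controls. SMAD1 and SMAD5 are close relatives that carry the same signal. Smad4, the shared partner, had 9.17 FPKM with overexpression and 8.24 FPKM in controls. In the authors' deposited table the q of these 5 lies between 0.351 for Smad2 and 0.680 for Smad4. Smad9 was not tested and was low in both groups, with 0.1198 FPKM with overexpression and 0.281 FPKM in controls.

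The pattern also takes 8 genes whose symbols resemble the family but whose products are not ligands, receptors or SMADs of it, and none of the 4 tested was called. Fstl1, a secreted follistatin-like glycoprotein gene, had 12.5 FPKM with overexpression and 11.1 FPKM in controls. Tgfbi, a matrix protein gene named for its response to TGF-beta, had 2.86 FPKM with overexpression and 2.05 FPKM in controls (authors' deposited table, q = 0.254). Tgfbrap1, an endosomal trafficking gene, had 1.95 FPKM with overexpression and 2.35 FPKM in controls. The kinase gene Bmp2k had 1.32 FPKM with overexpression and 1.55 FPKM in controls. Bmp1, Tgfb1i1, Fstl4 and Fstl5 were not tested and stayed at or below 0.505 FPKM.

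Over all 17 tested members that were not called, the log2 fold change lay between -0.38 and 0.48, and 74.5% of all tested genes lay within the larger of these sizes. A q above the threshold does not show that a gene was equal in both groups. Of the 41 members not tested, 31 were under 0.5 FPKM in both groups. Among the 33 of them with a value above 0 in both groups, 6 differed at least 2-fold upwards with overexpression and 8 at least 2-fold downwards, with a median log2 fold change of -0.04.

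**Figure D3:**
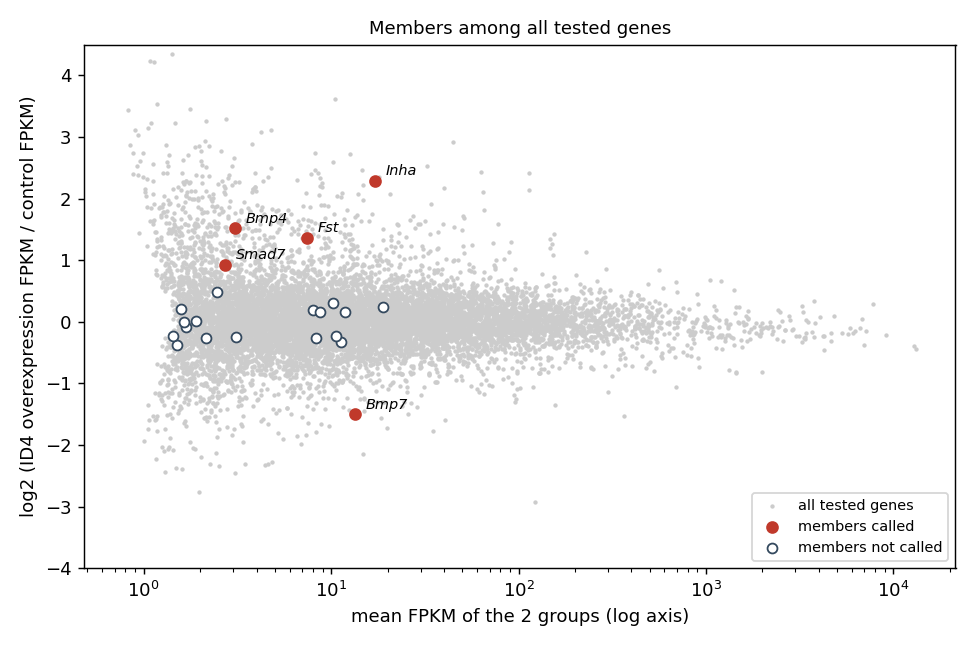
Log2 fold change (ID4 overexpression over control) against the mean FPKM of both groups (log axis) for all tested genes in grey, with called members in red and members not called as open points; 4 tested genes lie outside the vertical range. Inha and Bmp7 stand at mid-range levels near the upper and lower edge of the cloud, and the 17 members not called lie between -0.38 and 0.48.

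The wider pathway was read from a list of 78 further genes outside the pattern, of which 39 were tested, 8 were higher and 3 were lower. The called share was 8 of 39 for higher and 3 of 39 for lower genes, beside 9.59% and 7.42% of all tested genes, and the median log2 fold change was -0.10 (0.02 without the genes on chromosome 15). Outside the cell, Chrdl1, which encodes the BMP antagonist chordin-like 1, was at 2.09 FPKM with overexpression and 4.88 FPKM in controls (2.34-fold lower). Lrrc33 (also Nrros), which anchors latent TGF-beta on macrophages and microglia, was at 4.43 FPKM with overexpression and 0.956 FPKM in controls. In the authors' deposited table q is 0.000835 for both.

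In the cytoplasm, 2 of 16 tested genes were higher and 1 lower, not far from the 9.59% and 7.42% of all tested genes. Usp9x, a deubiquitinase known to act on SMAD4, was at 17.8 FPKM with overexpression and 10.9 FPKM in controls. Lemd3, an inner nuclear membrane protein gene whose product binds and restrains SMADs and which was listed here with the SMAD regulators, was at 5.13 FPKM with overexpression and 2.82 FPKM in controls. Zfyve9, which encodes the SMAD anchor SARA, was at 2.96 FPKM with overexpression and 5.08 FPKM in controls, with a q of 0.0449 in the authors' deposited table, and it overlaps the protein-coding gene 3110021N24Rik. The ubiquitin ligase genes Smurf1 and Smurf2 had log2 fold changes of -0.12 and 0.06 and were not called.

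Among the 9 tested nuclear regulators 1 was higher and 1 lower, also not far from the 9.59% and 7.42% of all tested genes. Tgif1, a homeobox corepressor of SMADs, was at 40.0 FPKM with overexpression and 12.8 FPKM in controls, 3.13-fold higher. Runx3, a transcription factor that partners SMADs, was at 1.33 FPKM with overexpression and 3.33 FPKM in controls, 2.50-fold lower, and an antisense transcript overlaps it. In the authors' deposited table q is 0.000835 for both. The corepressor genes Ski and Skil had log2 fold changes of -0.17 and 0.06 and were not called, and Tgif2, the paralog of Tgif1, had -0.53 with a q of 0.084.

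Of 7 tested genes known as transcriptional targets of the pathway, 4 were higher and 0 lower, beside 9.59% and 7.42% of all tested genes. The cell-cycle inhibitor genes Cdkn1a and Cdkn2b, also targets of other pathways, showed the larger changes. Cdkn1a was at 18.2 FPKM with overexpression and 4.47 FPKM in controls, and Cdkn2b was at 3.44 FPKM with overexpression and 1.28 FPKM in controls (authors' deposited table, q = 0.0134). Id2 was at 12.025 FPKM with overexpression and 7.69 FPKM in controls (q = 0.0449), and Id3 at 14.6 FPKM with overexpression and 8.51 FPKM in controls (q = 0.0247), both from the authors' deposited table. Id1 lay the other way, at 4.19 FPKM with overexpression and 6.51 FPKM in controls, and was not called (authors' deposited table, q = 0.226). Of the 3 BMP-responsive Id genes, Id2 and Id3 were thus called higher, and a change of Id1 in either direction is not shown.

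**Figure D4:**
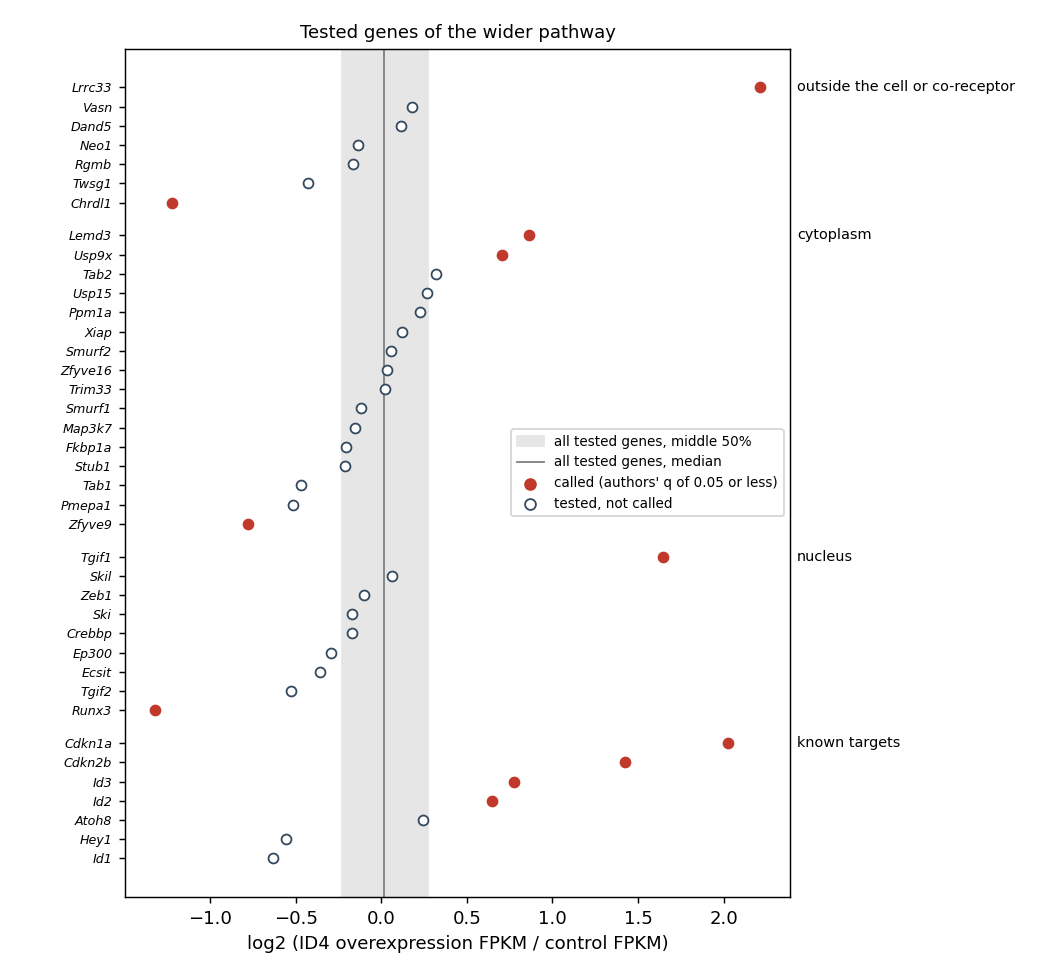
Log2 fold change (ID4 overexpression over control) of the 39 tested genes of the wider pathway, grouped by where their products act, with called genes in red. The grey band and line are the middle 50% and the median of all tested genes. Called genes lie on both sides outside the cell, in the cytoplasm and in the nucleus, and all 4 called targets lie to the right.

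The 250 bases before the RefSeq starts of Id2 and Id3 (GRCm38.p6) are shown because both genes are known targets of BMP-activated SMADs. Id2 lies at chr12:25096093-25096342 on the minus strand and Id3 at chr4:136143572-136143821 on the plus strand, with E-box letters CANNTG in capitals. These starts lie 1048 bases (Id2) and 325 bases (Id3) from the GENCODE starts and at the ends of the deposited loci.
Id2: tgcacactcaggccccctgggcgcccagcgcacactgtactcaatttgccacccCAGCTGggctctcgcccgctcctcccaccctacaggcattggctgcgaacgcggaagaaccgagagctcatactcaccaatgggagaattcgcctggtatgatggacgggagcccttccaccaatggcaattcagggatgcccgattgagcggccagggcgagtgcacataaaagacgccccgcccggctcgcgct
Id3: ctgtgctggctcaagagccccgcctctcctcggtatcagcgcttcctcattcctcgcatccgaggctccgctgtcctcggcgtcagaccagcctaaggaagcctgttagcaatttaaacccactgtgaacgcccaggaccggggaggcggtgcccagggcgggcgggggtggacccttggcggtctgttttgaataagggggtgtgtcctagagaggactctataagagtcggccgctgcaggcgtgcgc

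The Id2 window holds 1 E-box match, CAGCTG, letters that 13.0% of all windows hold, and the Id3 window holds none. One match to the BMP-type SMAD box GGCGCC was found in Id2 (9.59% of all windows hold it) and none in Id3. The short SMAD motif GTCT matched 1 time in Id2 and 2 times in Id3.

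Markers of several, but not all, testis somatic cell types differed between the same groups. The counts that follow stand beside 9.59% of all tested genes called higher and 7.42% called lower. Of 10 tested Sertoli cell markers, with Inha, Inhbb and Amh left out, 6 were higher and 0 lower, and the summed FPKM of the list of 15 genes was 227 with overexpression and 76.5 in controls. The summed FPKM of 17 macrophage markers was 358.5 with overexpression and 97.4 in controls, with 15 of 16 tested markers higher. Leydig cell markers summed to 73.7 FPKM with overexpression and 26.5 FPKM in controls (4 of 5 tested higher). Interstitial fibroblast markers summed to 46.2 FPKM with overexpression and 18.8 FPKM in controls (2 of 3 tested higher). Most of the fibroblast sum was Sparc, with 34.1 FPKM with overexpression and 11.5 FPKM in controls. Pdgfra was called higher as well, but Dcn was not called (authors' deposited table, q = 0.222). Col1a1 was not tested, with 1.62 FPKM with overexpression and 1.28 FPKM in controls. All 5 tested spermatid markers were higher, and the summed FPKM of that list was 314 with overexpression and 79.4 in controls. No marker of these lists was listed at 0 in either group. These changes stand beside those of Inha, known as a product of Sertoli and Leydig cells, and of Bmp4, Fst, Smad7, Tgif1 and Lrrc33, and their part in them was not tested.

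Defining markers of germ cells were abundant in both groups. Of 8 tested, 2 were higher and 2 lower, beside 9.59% and 7.42% of all tested genes. Ddx4, the germ-cell RNA helicase gene, had 255 FPKM with overexpression and 250.01 FPKM in controls, and neither it nor Dazl was called. Kit, the receptor of differentiating spermatogonia, had 38.1 FPKM with overexpression and 84.3 FPKM in controls and was called lower. Stra8 was called lower as well, with 57.7 FPKM with overexpression and 131 FPKM in controls. Gfra1 (37.3 FPKM with overexpression, 15.8 FPKM in controls) and Ret (16.5 FPKM with overexpression, 9.92 FPKM in controls) were called higher. Within the Sertoli list, Sox9 had 2.14 FPKM with overexpression and 0.746 FPKM in controls. Peritubular myoid and endothelial markers were not tested and stayed at or below 1.45 FPKM. In bulk RNA of this kind, a change in the number of cells of a type and a change in RNA per cell cannot be told apart.

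**Figure D5:**
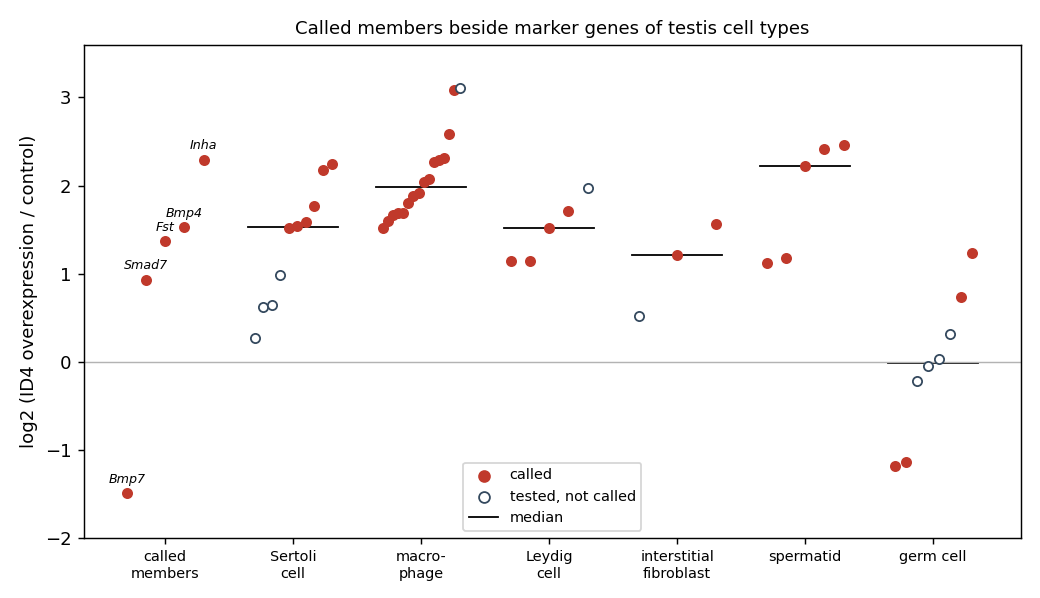
Log2 fold change (ID4 overexpression over control) of the 5 called members and of the tested marker genes of 6 cell types; red points were called, open points were not, and horizontal lines are list medians. Inha, Bmp4, Fst and Smad7 lie within the pooled range of the somatic and spermatid markers, but not within that of every list. Inha lies above all tested Sertoli cell, Leydig cell and interstitial fibroblast markers. Smad7 lies below all tested macrophage, Leydig cell and spermatid markers, and Fst below all tested macrophage markers. Bmp7 lies below all somatic and spermatid markers, and germ cell markers lie on both sides of 0.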

How the data were processed

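RNA from ID4-GFP+ spermatogonia was extracted with Trizol and primed with oligo d(T), per the labels' protocols, in 3 overexpression and 3 control samples, grouped by their titles. Per the submitters' processing notes, the tools were TopHat and Cufflinks (no version given) and the build mm9. The deposited table gives FPKM per gene and group, and the authors' p-values and q-values, in the layout of a gene-level Cuffdiff comparison per the file headers. Library scaling is not stated. Of 23355 rows, 10990 were tested. Although mm9 is named, 99.1% of 21589 symbols matched to GENCODE M21 overlapped the GRCm38 gene of that name, all 63 members included, so coordinates are printed as GRCm38, 1-based (deposited starts plus 1).

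Log2 fold changes were recomputed as overexpression over control FPKM with Python 3.11.15 and pandas 2.3.3, without a pseudocount, and no model was refitted. Named genes were Id4, called members, tested members at 2 FPKM or more in either group, the 5 most abundant of the other members, called genes of the wider list and Id1, Id2 and Id3; others are given as examples chosen after their values were seen. Of the wider list, Lrrc33 was matched through its synonym Nrros in RefSeq. Members and lists were chosen with earlier results of these data known. Alternatives were other q thresholds, a minimum level or fold, pseudocounts, centring, chromosome 15 rows, and leaving out rows taken by symbol or overlapping another gene. 1 member that was not tested is not reported here by name.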

Additional observations from a re-analysis of the deposited data

How the results depend on the processing

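With q thresholds of 0.01 and 0.1 or a minimum level of 1 FPKM, 5 of 22 tested members were called, 4 of them higher. Without genes taken by symbol only, 5 of 18 were called, 4 of them higher. A minimum absolute log2 fold change of 1 left 4, and adding chromosome 15 gave 6 of 23. Without members that overlap another gene, 3 of 10 tested were called, 2 of them higher. This setting takes out 12 of the 22 tested members, Bmp4 and Fst among them. Without overlaps with protein-coding genes only, a setting chosen after seeing the data, 4 of 18 were called. The share of all tested genes called under each setting is not given here. The median log2 fold change of tested members ranged from 0.07 to 0.15 over its alternatives. In the wider pathway list, a q of 0.01 left 7 calls, 5 of them higher, and a minimum absolute log2 fold change of 1 left 6, 4 of them higher; both settings are stricter by construction, and Id2, Id3, Cdkn2b and Zfyve9 are the genes above a q of 0.01. None of 29 named genes changed sign under pseudocounts of 1 and 0.1 FPKM or after subtracting the median of all tested genes. Leaving out replicates could not be run, since the table holds 1 value per group. No paired analysis was possible because no values per sample were used here. The unknown depth and the missing replicate spread limit every value, and genes under about 1 FPKM most.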
